A study of Mus musculus with 4 samples.

Results

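The genes of class I antigen processing and presentation were followed in CT26, a mouse colon carcinoma line of BALB/c origin grown in culture. The set was a fixed list of 10 genes: H2-K1, H2-D1, B2m, Tap1, Tap2, Tapbp, Psmb8, Psmb9, Psmb10 and Nlrc5. A gene was measured where a probe set carried its symbol and no other, and where there were several, the brightest on average over the 4 arrays stood for it. This gave 9 of the 10 genes, out of 22180 named genes in all. H2-D1 had no probe set that names it alone, so no value is given for it. All 9 measured genes reached the limit used for an expressed gene (a highest value of at least 5.98 on the log2 scale), as did 14272 genes in all.

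Each group was 1 culture on 1 Affymetrix Mouse Gene 2.0 ST array. One culture of unmodified CT26 received the solvent DMSO for 24 h, and another received Senexin B, an inhibitor of the Mediator kinases CDK8 and CDK19, at 5 µM for 24 h. The other cultures were CT26-pLKO.1, which carries a lentiviral hairpin vector, and CT26-shCDK8, which carries a hairpin against Cdk8. Whether these lines are single clones or pools is not given in the sources used here. The comparisons ask how transcript levels differ with inhibition of the kinase, or with a hairpin against Cdk8. Without replicates there is no test and no p-value, and each difference is one between 2 arrays. As a check of the labels, Cdk8 was 10.69 in DMSO, 10.58 in Senexin B, 10.79 in pLKO.1 and 9.07 in shCDK8. The array medians lay between 5.99 and 6.04.

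Class I molecules show peptides from proteins made inside a cell to CD8+ T cells. Proteasomes cut the proteins, and in cells exposed to interferon the catalytic subunits Psmb5, Psmb6 and Psmb7 are replaced by Psmb8, Psmb9 and Psmb10 of the immunoproteasome. The transporter made of Tap1 and Tap2 carries the peptides into the endoplasmic reticulum, where tapasin (Tapbp) helps to load them onto a heavy chain such as H2-K1 bound to beta-2-microglobulin (B2m). NLRC5 is a transactivator of class I genes that acts through the SXY module of their promoters, in which CREB and ATF1 bind the X2 box and NF-Y the Y box. Interferon response elements and NF-kappaB sites are further known inputs. Loss of this pathway lets tumour cells escape T cells, which is why its genes are read in tumour lines such as CT26.

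Promoters from 250 bases before to 50 after the start of the transcript were available from RefSeq (GRCm38.p6) for 8 of the 10 genes, and the entries not found were Tap2 and Nlrc5. They come from the C57BL/6J reference and not from the CT26 genome. The promoters below are those of a heavy chain, of the light chain and of Tap1, the transporter gene with a promoter available. That of Psmb10, the one measured gene that was not lowest on the DMSO array, follows. Capitals mark matches on either strand to GAAANNGAA and GAANNGAAA (forms of the interferon response element core), TTCNNNGAA (gamma-activated site), GGGANTTCC and the symmetric GGGANTCCC (NF-kappaB), TGACG (core of the cyclic AMP element in the X2 box) and ATTGG (Y box).
H2-K1 (chr17:34000298-34000597, minus strand): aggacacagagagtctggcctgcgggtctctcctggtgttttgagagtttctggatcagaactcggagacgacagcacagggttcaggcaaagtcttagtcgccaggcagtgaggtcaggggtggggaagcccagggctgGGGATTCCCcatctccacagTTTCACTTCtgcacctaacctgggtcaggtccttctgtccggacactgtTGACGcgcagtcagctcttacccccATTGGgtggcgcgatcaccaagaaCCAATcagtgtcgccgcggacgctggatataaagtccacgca
B2m (chr2:122147437-122147736, plus strand): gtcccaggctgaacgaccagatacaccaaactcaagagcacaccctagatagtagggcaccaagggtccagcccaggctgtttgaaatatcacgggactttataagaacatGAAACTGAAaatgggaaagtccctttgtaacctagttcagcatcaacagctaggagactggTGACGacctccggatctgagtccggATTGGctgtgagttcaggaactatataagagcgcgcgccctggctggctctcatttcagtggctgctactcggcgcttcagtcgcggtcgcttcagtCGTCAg
Tap1 (chr17:34187306-34187605, plus strand): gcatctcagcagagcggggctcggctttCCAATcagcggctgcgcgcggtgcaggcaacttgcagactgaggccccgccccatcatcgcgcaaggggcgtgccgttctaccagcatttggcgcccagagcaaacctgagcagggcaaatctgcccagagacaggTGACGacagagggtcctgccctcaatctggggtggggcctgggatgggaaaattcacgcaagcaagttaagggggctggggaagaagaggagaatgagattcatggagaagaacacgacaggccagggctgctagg
Psmb10 (chr8:105938343-105938642, minus strand): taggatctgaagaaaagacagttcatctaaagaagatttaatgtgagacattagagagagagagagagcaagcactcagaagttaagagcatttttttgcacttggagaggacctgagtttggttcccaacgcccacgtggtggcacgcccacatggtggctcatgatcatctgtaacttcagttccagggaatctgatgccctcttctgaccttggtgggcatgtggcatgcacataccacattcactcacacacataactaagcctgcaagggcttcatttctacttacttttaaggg

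The H2-K1 promoter held the symmetric NF-kappaB motif, which was found in 0.767% of 32851 promoters, the interferon motif GAANNGAAA (7.52%), TGACG (20.8%) and ATTGG (37.4%). The promoter of H2-D1 held the same 4 motifs, in the same order. B2m held the other interferon form, as GAAACTGAA, a motif of 8.56% of promoters, with TGACG and ATTGG. Tap1 lies head to head with Psmb9, with 226 bases between their start sites, and the promoter windows of the pair share 275 bases. The windows of Tap1 and Psmb9 therefore show the same TGACG and ATTGG matches, read from opposite strands. Psmb8 held a gamma-activated site (8.3%), Tapbp held ATTGG only, and the Psmb10 window held none of the motifs. The motif GGGANTTCC, found in 1.68% of promoters, was in none of the 8. Such a match is a run of letters and says nothing about binding in CT26. The motif letters were settled after the promoters had been read.

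The DMSO array gave the lowest of the 4 values for 8 of the 9 class I genes, whereas it was lowest for 18.3% of expressed genes. Psmb10 was the exception, with its highest value on that array. As a result 8 of 9 genes were above DMSO on the Senexin B array, with a median difference of 0.37 on the log2 scale, against 44.8% of expressed genes above 0 and a median of -0.03. The same 8 genes were also higher in pLKO.1 than in DMSO, with a median of 0.28, against 44.3% of expressed genes above 0 and a median of -0.02. These comparisons share the DMSO array. Set against the pLKO.1 array instead, Senexin B was above the control for 8 of 9 genes, but the median was 0.13, with 49.8% of expressed genes above 0 and a median of -0.00. Here Nlrc5 was the exception, at -0.36, and Psmb10 was at 0.11. These counts of genes above 0 were the same after a repeated quantile normalization and after removal of an expression trend. They depended on the probe set for Tapbp in pLKO.1 minus DMSO, at 0.08 here and -0.13 as the mean of its probe sets. The count for pLKO.1 minus DMSO was thus lower with that mean.

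**Figure D1:**
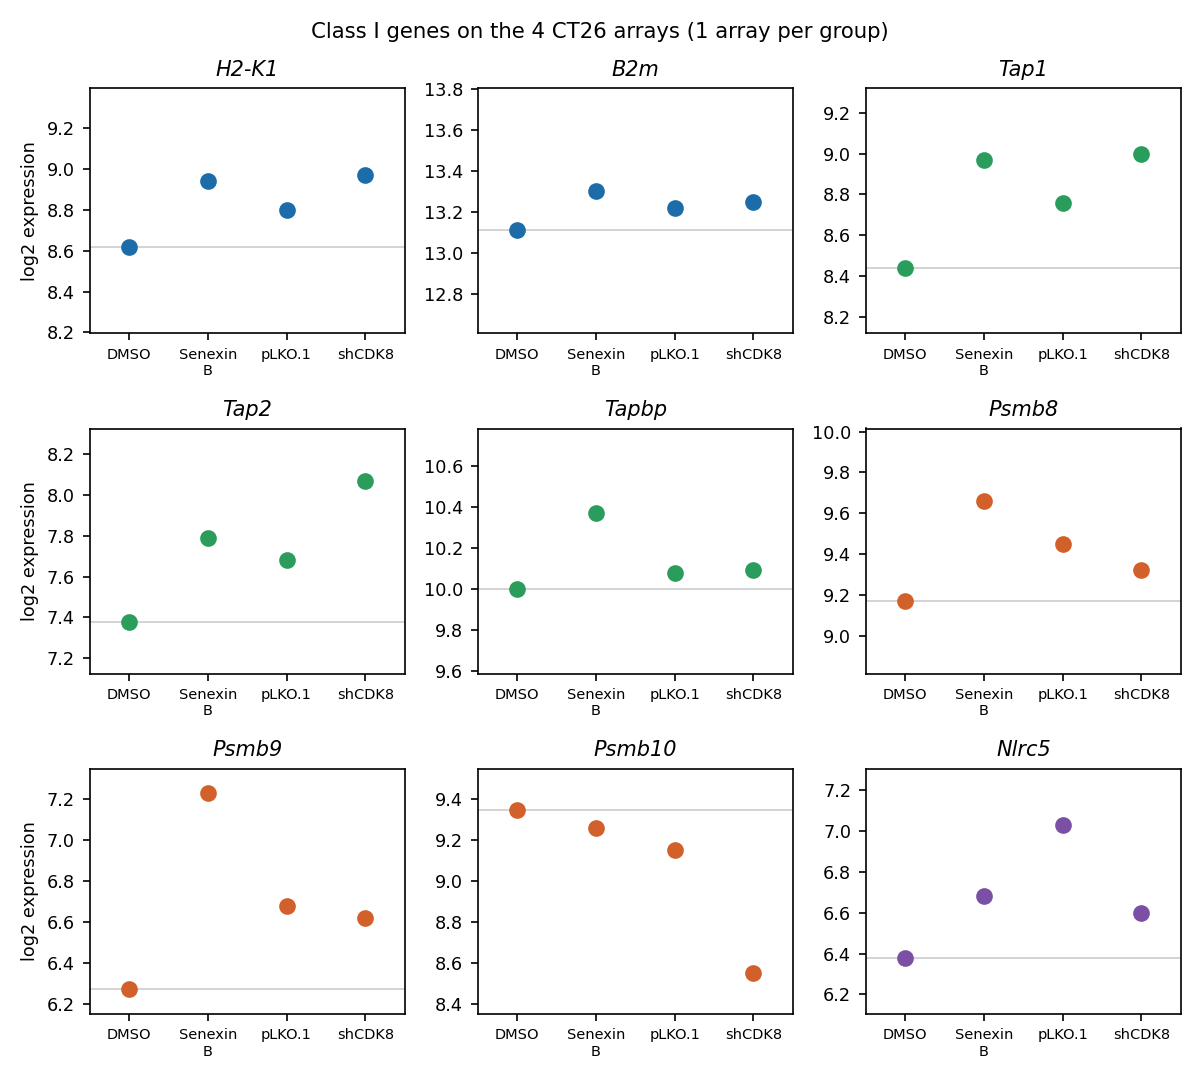
The log2 expression of each measured class I gene on the DMSO, Senexin B, pLKO.1 and shCDK8 arrays, with 1 point per array, a grey line at the DMSO value and the same span on every axis. The DMSO point is the lowest in 8 of the 9 panels, and in the Psmb10 panel it is the highest.

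H2-K1, the heavy chain that holds the peptide, had log2 values of 8.62 in DMSO, 8.94 in Senexin B, 8.80 in pLKO.1 and 8.97 in shCDK8. The Senexin B and shCDK8 cultures were thus the high ones, 0.32 above DMSO and 0.17 above pLKO.1. The Senexin B difference was larger than that of 90.6% of expressed genes and the shCDK8 difference larger than that of 77.6%. H2 heavy chains are highly alike and differ between mouse strains, so probes designed on one allele may also read others. B2m, the light chain shared by all class I molecules, was at 13.11 in DMSO, 13.30 in Senexin B, 13.22 in pLKO.1 and 13.25 in shCDK8. Its whole range was 0.19, the smallest of the 9 genes, and shCDK8 and pLKO.1 differed by 0.02. Values this high can be compressed on an array, so a small range in B2m does not show a small change in its RNA.

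Tap1 and Tap2, which together form the peptide transporter, had the same order of arrays as H2-K1: DMSO lowest, then pLKO.1, Senexin B and shCDK8. Tap1 was at 8.44 on the DMSO array, 8.76 on the pLKO.1 array and 8.97 on the Senexin B array, and shCDK8 lay 0.24 above pLKO.1. It was 0.53 higher with Senexin B, a 1.44-fold difference. Tap2 had values of 7.38 in DMSO, 7.79 in Senexin B, 7.68 in pLKO.1 and 8.07 in shCDK8. It was 0.41 higher with Senexin B and 0.39 higher in shCDK8 than in its vector control, the largest positive shCDK8 difference of the 9 genes and above that of 94.1% of expressed genes. Against the other control Tap1 and Tap2 stood 0.21 and 0.11 higher with Senexin B, and 0.56 and 0.69 higher in shCDK8. Senexin B gave the highest value for 4 of the 9 genes, beside 26.9% of expressed genes, and shCDK8 for 3 of them, beside 28.7%.

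Tapbp, the tapasin gene, had values of 10.00 in DMSO, 10.37 in Senexin B, 10.08 in pLKO.1 and 10.09 in shCDK8. The Senexin B array was the high one, by 0.37 from DMSO and by 0.29 from pLKO.1, while shCDK8 lay 0.01 from pLKO.1. Tapbp was also the one class I gene measured by 2 probe sets, and they disagreed. The second probe set had 7.37 in DMSO, 7.37 in Senexin B, 7.04 in pLKO.1 and 7.28 in shCDK8. It gave -0.01 for Senexin B minus DMSO, 0.33 for Senexin B minus pLKO.1 and 0.24 for shCDK8 minus pLKO.1. For pLKO.1 minus DMSO it gave -0.33, where the brighter probe set gave 0.08, so DMSO was not its lowest array. The probe sets thus gave a like Senexin B difference against pLKO.1 and an unlike one against DMSO.

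Psmb9, an immunoproteasome subunit, varied most, with values of 6.27 in DMSO, 7.23 in Senexin B, 6.68 in pLKO.1 and 6.62 in shCDK8. The Senexin B array was the high one and DMSO the low one. Senexin B minus DMSO came to 0.96, or 1.94-fold, above 99.3% of expressed genes. Against pLKO.1 it was 0.55 higher, or 1.46-fold, above 96.9% of expressed genes. Psmb9 was the one class I gene at least 1.5-fold apart (0.58 on the log2 scale) between Senexin B and DMSO, 1 of 9 beside 2.35% of expressed genes that were that much higher. No class I gene passed 1.5-fold in Senexin B minus pLKO.1, where 4.44% of expressed genes did.

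Psmb8, the neighbour of Tap1, had values of 9.17 in DMSO, 9.66 in Senexin B, 9.45 in pLKO.1 and 9.32 in shCDK8. As for Psmb9, Senexin B was highest, pLKO.1 next and shCDK8 below pLKO.1. The Psmb8 differences were 0.49 for Senexin B minus DMSO, 0.21 for Senexin B minus pLKO.1 and -0.13 for shCDK8 minus pLKO.1. Psmb10, the third subunit, had values of 9.35 in DMSO, 9.26 in Senexin B, 9.15 in pLKO.1 and 8.55 in shCDK8. Here the shCDK8 array stood alone, at least 0.60 below every other array. Psmb10 was at -0.60 for shCDK8 minus pLKO.1, or 1.51-fold lower, and at -0.80 against DMSO, or 1.74-fold lower. It was the one class I gene past 1.5-fold in shCDK8 minus pLKO.1, 1 of 9 beside 1.85% of expressed genes that were that much lower. Only 1.73% of expressed genes had a lower difference.

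Nlrc5, the transactivator, had values of 6.38 in DMSO, 6.68 in Senexin B, 7.03 in pLKO.1 and 6.60 in shCDK8. The pLKO.1 array was the high one, and the other 3 lay within 0.30 of each other. Nlrc5 was therefore 0.30 higher with Senexin B than with DMSO but -0.36 against pLKO.1, and it was at -0.43 for shCDK8 minus pLKO.1 but 0.23 higher against DMSO. The largest Nlrc5 difference was between the controls, 0.66 for pLKO.1 minus DMSO or 1.58-fold, past 1.5-fold where 0.603% of expressed genes were that much higher. Each sign of the Nlrc5 response thus depended on the control chosen.

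**Figure D2:**
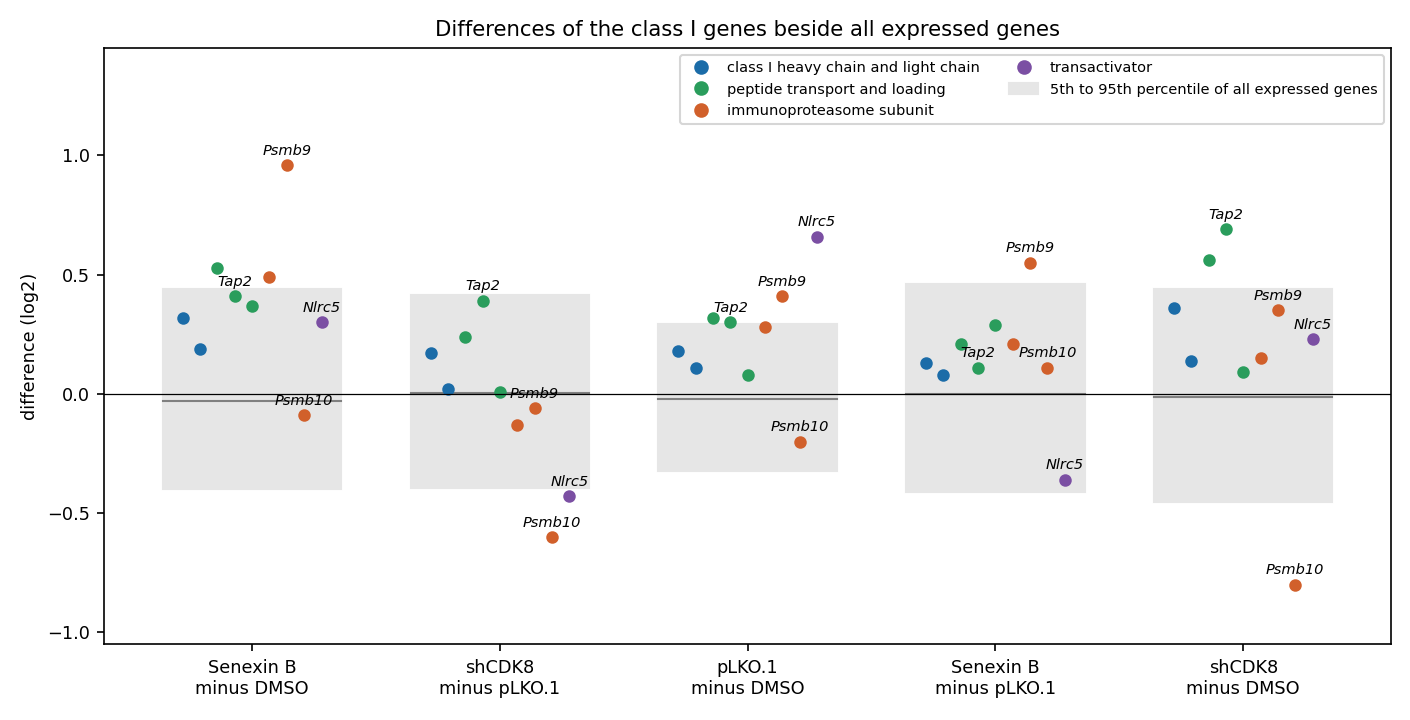
Differences of the 9 measured class I genes on the log2 scale, coloured by role, in 5 pairs of arrays, with a grey band from the 5th to the 95th percentile of 14272 expressed genes and a line at their median. Psmb9 lies above the band in both Senexin B columns, Psmb10 below it in both shCDK8 columns, and Nlrc5 changes side with the control array.

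At a lower threshold of 0.3219 on the log2 scale, 5 of 9 genes were apart between Senexin B and DMSO beside 18.2% of expressed genes, 3 between shCDK8 and pLKO.1 beside 16.5%, and 2 between the controls beside 9.08%. H2-K1 lay just under it for Senexin B minus DMSO, at 0.3185, and Tap1 between the controls, at 0.3215. None of the 9 was 2-fold apart in these comparisons, beside 0.939%, 0.518% and 0.0981% of expressed genes.

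In the hairpin line the class I genes did not move as a block. Of 9 genes 5 were higher in shCDK8 than in pLKO.1 and 4 were lower, with a median of 0.01 beside a median of 0.00 for expressed genes, of which 50.8% were above 0. The 5 were the heavy and light chains, both transporter subunits and Tapbp, though B2m and Tapbp differed by no more than 0.02. The 4 were the 3 immunoproteasome subunits and Nlrc5, though Psmb9 was at only -0.06. Against DMSO, 8 of 9 were higher in shCDK8, all but Psmb10, with a median of 0.23, where 47.5% of expressed genes were above 0. Tap2 (0.69) and Psmb10 (-0.80) were then at least 1.5-fold apart, 2 of 9 beside 4.48% of expressed genes.

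The immunoproteasome subunits were next set against the subunits they replace. Psmb5 was at 10.33 in DMSO, 10.01 in Senexin B, 10.19 in pLKO.1 and 10.42 in shCDK8, so Senexin B was its lowest array. Psmb6 lay between 10.20 and 10.34 and Psmb7 between 10.77 and 10.99. The difference of Psmb8 for Senexin B minus DMSO exceeded that of Psmb5 by 0.81, and that of Psmb9 exceeded that of Psmb6 by 1.07. That of Psmb10 exceeded that of Psmb7 by only 0.02. With pLKO.1 as the control the 3 excesses were 0.39, 0.53 and 0.33. In shCDK8 minus pLKO.1 all 3 had the other sign, at -0.35, -0.20 and -0.47 in the same order. With DMSO as the control they were 0.07, 0.34 and -0.79, so for shCDK8 only the Psmb10 and Psmb7 pair kept its sign. These pairs were computed after the values had been seen.

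**Figure D3:**
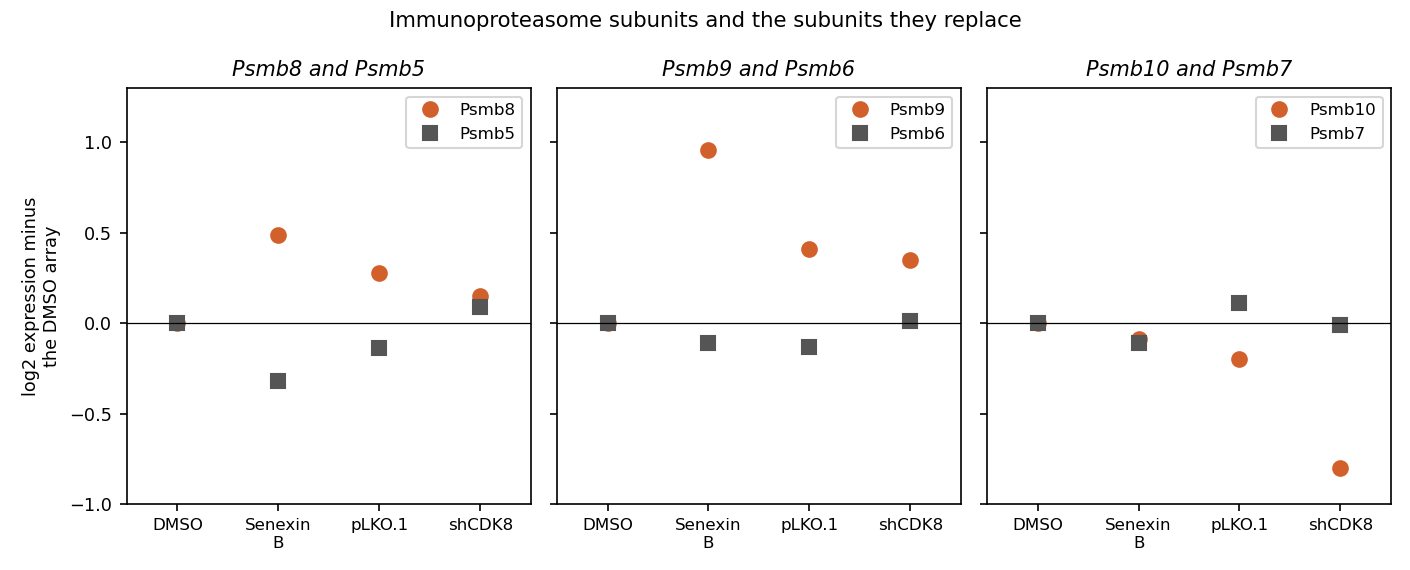
Log2 expression minus the DMSO array for each immunoproteasome subunit (circles) and the constitutive subunit it replaces (squares), 1 point per array. With Senexin B Psmb8 and Psmb9 lie above 0 and Psmb5 and Psmb6 below it, and in shCDK8 Psmb10 is at -0.80 while Psmb7 is at -0.01.

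The remaining subunits of the proteasome core were mostly a little lower with Senexin B. Of 10 expressed members 1 (Psmb1, at 0.05) was above 0 for Senexin B minus DMSO, beside 44.8% of expressed genes, with a median of -0.13, although 2 were above 0 after a repeated quantile normalization and 3 after removal of the expression trend. In shCDK8 minus pLKO.1 8 of the 10 were higher, beside 50.8% of expressed genes, with a median of 0.06. The largest differences of the list were those of Psma1 (-0.31) and Psma2 (-0.20) with Senexin B, and of Psmb3 (-0.28) and Psma5 (0.27) in shCDK8. Partners of the immunoproteasome had medians of -0.07 with Senexin B and -0.01 in shCDK8 against the paired controls over 7 genes, both within 0.1 of 0 after either rescaling. Among them Psme2, a subunit of the interferon-inducible PA28 activator, had values of 8.01 in DMSO, 8.34 in Senexin B, 7.83 in pLKO.1 and 8.17 in shCDK8. The Senexin B and shCDK8 cultures were both above both controls, by 0.16 to 0.51. Its partner Psme1 was 0.19 higher with Senexin B and 0.23 higher in shCDK8 against the paired controls. Psme3, a nuclear activator outside that pair, was at -0.71 for shCDK8 minus pLKO.1 and at -0.72 against DMSO. Psmg2, a chaperone of proteasome assembly, was at -0.31 in shCDK8, and Psme4, another activator, at -0.27.

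The helpers of peptide trimming and loading were below 0 for Senexin B minus DMSO in 10 of 12 expressed genes, with a median of -0.15, beside 55.1% of all expressed genes. For Senexin B minus pLKO.1 they were below 0 in 8 of 12, with a median of -0.05, beside 50.2%. Tapbpl, a tapasin relative, was at 0.24 and 0.19 in these comparisons, and Erap1, the aminopeptidase that trims peptides in the endoplasmic reticulum, at 0.11 and 0.04. In shCDK8 minus pLKO.1 the list had 6 genes above 0 and 6 below, beside 50.8% of expressed genes above 0. After either rescaling of the arrays 7 of the list were above 0. Npepps, a cytosolic aminopeptidase, was at -0.60 in shCDK8 minus pLKO.1 and at -0.54 against DMSO, and Erap1 was at -0.35 and -0.27. Sec61b, a subunit of the translocon, was 0.28 higher in shCDK8.

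Other class I heavy chains differed among themselves. Of 21 listed 13 were measured and 10 expressed. Of these 7 were above 0 for Senexin B minus DMSO (6 after either rescaling), with a median of 0.12, beside 44.8% of all expressed genes. For Senexin B minus pLKO.1 only 2 were above 0, with a median of -0.19, beside 49.8%. H2-Q4 and H2-M3 were lowest in DMSO and highest in shCDK8, as was H2-K1. They were at 0.11 and 0.12 for shCDK8 minus pLKO.1, but at -0.40 and -0.11 for Senexin B minus pLKO.1. H2-T24 had values of 5.93 in DMSO, 6.22 in Senexin B, 6.79 in pLKO.1 and 5.87 in shCDK8, so pLKO.1 was its high array, as for Nlrc5. It was at -0.92 for shCDK8 minus pLKO.1 and at -0.05 against DMSO, with its DMSO and shCDK8 values under the expression limit of 5.98. H2-Q10, which encodes a secreted class I molecule, was at -0.84 in shCDK8 minus pLKO.1 and at -0.64 against DMSO, and H2-Q1 at -0.54 and -0.45. H2-M2 was 0.40 higher with Senexin B, from 5.78 in DMSO, under the expression limit, which it passed only on the Senexin B array, at 6.17.

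Among class I-like molecules, Mr1, which presents vitamin metabolites to MAIT cells, had values of 7.68 in DMSO, 7.82 in Senexin B, 7.85 in pLKO.1 and 8.80 in shCDK8. The shCDK8 array was far above the other 3, by 0.95 from pLKO.1 and 1.12 from DMSO. Fcgrt, the neonatal Fc receptor heavy chain, which also pairs with B2m, was at 8.86 in DMSO, 9.53 in Senexin B, 9.11 in pLKO.1 and 9.54 in shCDK8. Both cultures aimed at CDK8 were above both controls, by 0.43 or more. Ulbp1, a ligand of the activating receptor NKG2D, was at -0.49 for Senexin B minus DMSO and 0.40 higher in shCDK8 minus pLKO.1. Procr, the protein C receptor, was at -0.31 with Senexin B and at -0.15 in shCDK8. The list as a whole had medians of 0.00 and -0.13 over 7 expressed genes.

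A list of 28 genes held regulators that act on class I promoters together with receptors, kinases and other genes of interferon signalling. Of these 26 were measured and expressed. Atf1 and Nfkb1 had no probe set of their own. Of the 26, 5 were at least 1.5-fold higher with Senexin B than with DMSO and 1 was lower, beside 2.35% and 1.65% of expressed genes, with a median of -0.01. Against pLKO.1 only 2 were higher (Ifnar2 and Tyk2) and 1 was lower (Jak2), all of them signalling genes, beside 2.59% and 1.86%. Stat2, part of the type I interferon signal, had values of 7.58 in DMSO, 8.46 in Senexin B, 7.95 in pLKO.1 and 7.55 in shCDK8. It was highest with Senexin B, by 0.88 from DMSO and 0.51 from pLKO.1, and pLKO.1 came next, as for Psmb9 and Psmb8. Ifnar2, a chain of the type I interferon receptor, and the receptor kinase gene Tyk2 were each 0.60 higher with Senexin B. Irf9, the partner of Stat2, was at 7.79, 8.57, 8.66 and 8.31 in the order DMSO, Senexin B, pLKO.1, shCDK8, so that only DMSO was low. Irf7, the interferon-induced regulator, was at 7.63, 8.84, 8.96 and 7.76 in that order, high on the Senexin B and pLKO.1 arrays. Jak2, a kinase of the interferon-gamma receptor, was at -0.80 for Senexin B minus DMSO and at -0.96 against pLKO.1, the lowest of the list. No measured gene of the SXY module in this list was 1.5-fold apart in Senexin B minus DMSO or in shCDK8 minus pLKO.1. Nfyc was at -0.29 and -0.09 in these comparisons. Rfx5 was 0.04 higher with Senexin B and 0.13 higher in shCDK8, and Rfxap was at -0.39 and 0.07, while Nfya was at -0.01 and -0.06.

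**Figure D4:**
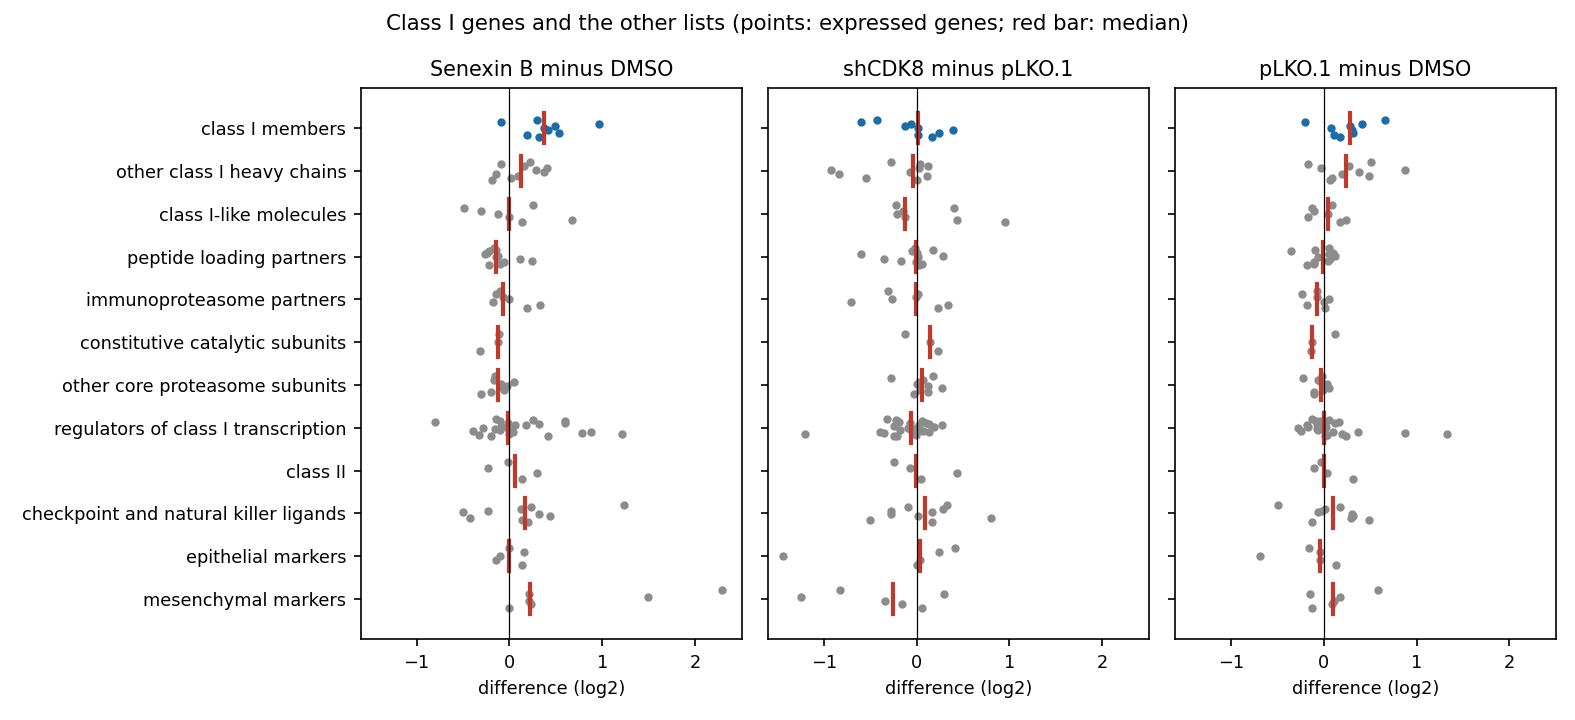
Differences on the log2 scale of the expressed genes of 12 lists in 3 pairs of arrays, with 1 point per gene and a red bar at the list median. The class I genes (blue) have medians of 0.37, 0.01 and 0.28 from left to right, and the peptide loading partners -0.15, -0.00 and -0.01.

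The genes whose profile over the 4 arrays was most like the median profile of the class I genes were Gcnt4, Basp1, Disc1, Zfp740, Mks1 and Zfp637, by Euclidean distance of values centred on each gene's mean. Their distances were 0.062 to 0.071, closer than any class I gene. The median class I profile was -0.23 in DMSO, 0.17 in Senexin B, -0.02 in pLKO.1 and -0.05 in shCDK8. Psmb8 (0.114) and Tapbp (0.120) lay nearest to it among the class I genes, and B2m, H2-K1 and Tap1 lay at 0.168, 0.200 and 0.285. Psmb9 (0.407), Tap2 (0.420) and Nlrc5 (0.422) had 7826, 8295 and 8380 other expressed genes nearer to that profile. Psmb10, at 0.703, lay farther from the profile than 13438 expressed genes. Gcnt4, a glycosyltransferase gene, was at 9.78, 10.19, 9.99 and 9.95 in the order DMSO, Senexin B, pLKO.1, shCDK8. With 4 arrays such a likeness is a description only.

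Markers of other cell types were read beside the class I genes. Of 9 leukocyte markers 8 were measured, and all but Itgax lay under the expression limit on every array. Itgax was at 5.79 to 6.05. The mean of the list was 5.18 to 5.26 and Ptprc, the pan-leukocyte marker, was at 4.27 to 4.66. Of the class II list, which marks professional antigen-presenting cells, 4 of 10 measured genes were expressed. The chains H2-Aa and H2-Ab1 were under the limit on every array, while the chain H2-Eb1 was at 6.91 to 7.27. The peptide-exchange genes H2-DMa and H2-Oa were at 6.25 to 6.72 and 6.26 to 6.48, and the class II transactivator gene Ciita at 6.73 to 6.99. The expressed genes had medians of 0.06 with Senexin B and -0.01 in shCDK8 against the paired controls. For the labelled colon carcinoma, 5 of 7 epithelial markers were expressed, and Epcam and Vil1 were under the limit on every array. Krt20, an intestinal keratin, was at 8.72 in DMSO, 8.62 in Senexin B, 8.03 in pLKO.1 and 6.59 in shCDK8, so that shCDK8 was the low array. The keratins Krt8 and Krt18 were at 7.12 to 7.25 and 6.38 to 6.53, the adhesion gene Cdh1 at 6.50 to 6.74 and the intestinal factor gene Cdx2 at 6.40 to 6.82. The mean of the epithelial markers was 6.50 in DMSO, 6.55 in Senexin B, 6.37 in pLKO.1 and 6.24 in shCDK8. The mesenchymal gene Vim was at 13.81 to 13.94. Mesenchymal markers had a mean of 9.78 in DMSO, 10.52 in Senexin B, 9.89 in pLKO.1 and 9.52 in shCDK8, led by Dcn (2.29 for Senexin B minus DMSO) and Pdgfrb (1.49), while Col1a2 and Thy1 were each 0.21 higher. The part of these epithelial and mesenchymal genes in the class I differences was not tested. In such bulk RNA a change in the share of cells and a change in RNA per cell cannot be told apart.

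Genes that T cells and natural killer cells read together with class I differed singly. Cd80, a costimulatory ligand, had values of 9.97 in DMSO, 9.54 in Senexin B, 10.26 in pLKO.1 and 11.06 in shCDK8. It was lowest with Senexin B and highest in shCDK8, at -0.43 and 0.80 against the paired controls. Fas, the death receptor, was at 7.92, 9.16, 7.44 and 7.77 in the same order, highest with Senexin B. Pvr, a ligand of natural killer receptors, was at -0.50 with Senexin B and 0.17 higher in shCDK8. Cd274, which encodes PD-L1, stayed near the expression limit at 5.81 to 6.13. The inhibitory ligand gene Pdcd1lg2 was also near it, and only the pLKO.1 value of 6.19 was above. The list had medians of 0.17 and 0.09 over 10 expressed genes.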

How the data were processed

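Total RNA from 4 cultures was hybridised to 1 array each. The authors deposited log2 expression values per probe set, made with RMA and Affymetrix Expression Console, per the submitters' processing notes. Versions are not stated there, nor is joint normalization of the arrays. RMA equalizes the arrays, so a shift common to all genes is lost, and low values are compressed. Of 41345 probe sets 23521 had 1 gene symbol in the platform annotation, 1814 several and 16010 none; only the first were used. The expression limit was the 40th percentile of all gene values. Differences of log2 values were taken between arrays with Python 3.11.15 and pandas 2.3.3, and counts of genes used a 1.5-fold threshold. The number of arrays limits the precision, and signal over background was not used here. From each of 12 further lists up to 4 expressed genes with the largest difference are named; other genes in these lists were picked with their values known. The 6 genes of nearest profile were also named. The genes and lists were chosen with earlier results of these data known. The counting was tested on simulated data with changes larger than any class I difference given here. It therefore says nothing about calls of differences as small as these. Alternatives covered probe sets, scaling, low values, the threshold and the control array.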

Additional observations from a re-analysis of the deposited data

How the results depend on the processing

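The other control array took the class I median from 0.37 to 0.13 for Senexin B and from 0.01 to 0.23 for shCDK8, and the number of genes at least 1.5-fold apart from 1 to 0 and from 1 to 2. That number was 2 for Senexin B minus DMSO after removal of a lowess trend (span 0.3), and 0 for pLKO.1 minus DMSO among the 8 genes above the 60th percentile, a limit that leaves out Nlrc5. That limit, 7.19, was set against the highest array of a gene, and Psmb9 passed it only through its Senexin B value of 7.23. At a 2-fold threshold the number of genes apart was 0 in all 3 comparisons. At 0.3219 on the log2 scale it was 5 for Senexin B minus DMSO, 3 for shCDK8 minus pLKO.1 and 2 for pLKO.1 minus DMSO. None of the 3 medians moved by 0.1 or more with a repeated quantile normalization or with the mean in place of the median. The same held for genes with a single probe set and for the mean of all probe sets, which could change only Tapbp. Values raised to the expression limit could not move the medians, because every class I value was already above 5.98. Of 126 values of single genes under the alternatives 107 shifted by less than 0.1 and 19 by more. Of these 19, 16 came with the other control array, which moved 8 genes and left 1 for each of Senexin B and shCDK8. The 107 include values that could not shift. These are all those of the expression-limit alternative, and those of the probe-set mean for the 8 genes with a single probe set. No paired analysis was possible because each group has 1 array.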
